A study of Homo sapiens with 12 samples.

Results

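Long intergenic non-coding RNA (lincRNA) genes were examined in HAP1, a near-haploid human cell line that came from a chronic myelogenous leukemia, and in a derivative of it in which SETDB1 had been knocked out. The genes described here, chosen by annotation and by their mean count, are the 169 that GENCODE release 29 types as lincRNA, that lie on autosomes, and that had a mean raw count of at least 20 over the 6 libraries of a non-directional kit, 3 of wild type and 3 of knockout. They were 169 of the 58735 genes in the count tables and of 7629 lincRNA genes. Of 7446 autosomal lincRNA genes, 4972 had no count in any of the 6 libraries and 176 reached the mean of 20. From those, 6 genes in 2 segments of chromosomes 1 and 9 whose genes moved together were left out, as was AC068707.2 by name. The labels give no treatment and 1 medium for both groups, and 6 further libraries, 3 of each genotype, were made with a directional kit. The labels do not say whether the knockout is a single clone, so clone and genotype cannot be told apart.

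SETDB1 is an enzyme that methylates a lysine of histone H3 and so helps to keep chromatin silent. It is brought to DNA largely by zinc finger proteins of the KRAB family through the corepressor TRIM28, and it is known for silencing retroelements and clusters of zinc finger genes. lincRNA genes are transcribed and spliced much as protein-coding genes are, but their RNA encodes no known protein. They tend to be expressed at low levels and in few cell types, and many start within sequence derived from transposable elements.

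Depth was even, at 8921959 to 10199215 gene counts in the non-directional libraries, so that 3 counts, taken as the floor of detection, correspond to 0.294 to 0.336 counts per 1000000 gene counts of the library (CPM). SETDB1 had 63.8, 60.9 and 55.2 CPM in wild-type replicates 1, 2 and 3 against 12.1, 10.8 and 11.6 CPM in those of the knockout, a change of -2.39 on the log2 scale (SE 0.079, adjusted p = 7e-43 by edgeR), and it lies within the chromosome 1 segment. All 7 haematopoietic markers examined (PTPRC, SPI1, CD33, CD34, ITGAM, MPO and GATA1) had at most 4 counts in any non-directional library, although the label gives a leukemia as the cell type. Among 4 epithelial markers KRT8 had 83.1 CPM in wild type and 115 CPM in knockout cells, KRT18 59.1 and 55.4 CPM, EPCAM 3.74 and 39.7 CPM, and CDH1 1.10 and 0.407 CPM. Of 5 fibroblast markers COL1A1 had 16.4 and 18.4 CPM, THY1 0.910 and 0.135 CPM and COL1A2 0.218 and 0 CPM, while DCN and LUM had no count. Whether these differences have a part in the changes of lincRNA genes was not tested. The knockout libraries differed from each other by no more than sampling noise. Wild-type replicate 2 differed from replicates 1 and 3 with a chi-square per degree of freedom of 1.82 and 2.00. The titles call the libraries biological replicates, and p-values measure the spread between these libraries only.

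Promoters were taken from RefSeq on GRCh38.p14, 250 bases before to 50 after the annotated start. Those to be printed were looked up for rising and falling genes among those with the largest changes. They are shown for ZNF667-AS1, which rose, and LINC01206, which fell, the only genes of this set with an entry. AP005482.1, AL359706.1, AL161431.1 and AC092127.2 had no entry in the table used. Capitals mark each CG dinucleotide. The first lies at chr19:56477624-56477923 and the second at chr3:181952114-181952413, both on the plus strand. The RefSeq start of ZNF667-AS1 is 623 bases from the outermost GENCODE start, and that of LINC01206 is 20 bases from it.
ZNF667-AS1: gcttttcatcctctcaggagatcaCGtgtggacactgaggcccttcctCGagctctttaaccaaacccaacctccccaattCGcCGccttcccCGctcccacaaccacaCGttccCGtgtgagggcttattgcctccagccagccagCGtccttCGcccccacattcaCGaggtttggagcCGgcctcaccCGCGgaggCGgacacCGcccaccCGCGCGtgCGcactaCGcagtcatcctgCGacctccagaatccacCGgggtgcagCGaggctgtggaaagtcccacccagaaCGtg
LINC01206: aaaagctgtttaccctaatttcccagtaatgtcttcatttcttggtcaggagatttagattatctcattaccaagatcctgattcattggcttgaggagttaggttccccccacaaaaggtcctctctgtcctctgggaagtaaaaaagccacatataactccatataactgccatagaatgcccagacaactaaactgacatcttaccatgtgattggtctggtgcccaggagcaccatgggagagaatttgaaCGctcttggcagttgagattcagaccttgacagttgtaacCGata
The promoter of ZNF667-AS1 held 24 CG dinucleotides at a GC content of 63.3%, and that of LINC01206 held 2 at 43%. A promoter entry was found for 78 of the 169 genes. The median number of CG was 23 over these 78, 21 over the 23 that were higher in the knockout, 23 over the 17 that were lower and 24.5 over the 38 that did not pass, against 14 over all 35116 promoters in the table. The motif TATAAA, searched on both strands, was in 0 of the 23, 2 of the 17 and 3 of the 38, and in 11.5% of all promoters in the table.

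In the knockout 52 of the 169 lincRNA genes were higher and 30 were lower, while 87 did not pass the threshold of 0.05 on the edgeR adjusted p. Across all 13778 genes tested 25.5% were higher and 25.9% were lower, so that the share of lincRNA genes called higher (30.8%) was near that background and the share called lower (17.8%) was under it. Changes of at least 2-fold were found in 18 lincRNA genes upward and 6 downward, against a background of 3.61% and 4.18% of all genes tested. Of these, 9 of the 18 and 5 of the 6 reached a mean count of 20 in one genotype only, which leaves 9 upward and 1 downward among the genes that reached it in both. The median log2 fold change was 0.08, against 0.00 for all genes tested, and the middle 50% of lincRNA genes lay between -0.24 and 0.42. The median absolute log2 fold change was 0.304, against 0.185 for the 12312 protein-coding genes tested.

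The rule on the mean count also lets in genes that reach it through one genotype only, and their calls are no support for a difference. A mean of 20 was reached in both genotypes by 146 genes, of which 39 were higher, 24 were lower and 83 did not pass. The other 23 genes reached it in one genotype only. Of the 16 that stayed under 20 in the wild type 13 were called higher, and of the 7 that stayed under 20 in the knockout 6 were called lower. Among the first are AP005482.1, LINC01608, AL359706.1, ZNF667-AS1, AC008050.1, AL138881.1, LINC02008 and AC068707.1, described below. Among the second are AL161431.1, LINC01206, AC092127.2, MIAT and LINC02593. Their values and adjusted p are given as a description. Counting by separation of the libraries, the knockout lay wholly above the wild type in 55 of the 169 genes and wholly below it in 35, against 29.1% and 27% of all genes tested. At the edge of the rule, LYRM4-AS1 and AP001790.1 had a mean of exactly 20 counts and LINC02008 20.2, while CASC15 and DNAJC3-DT, both at 19.8, and AC015849.5 at 19.7 were just outside.

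**Figure D1:**
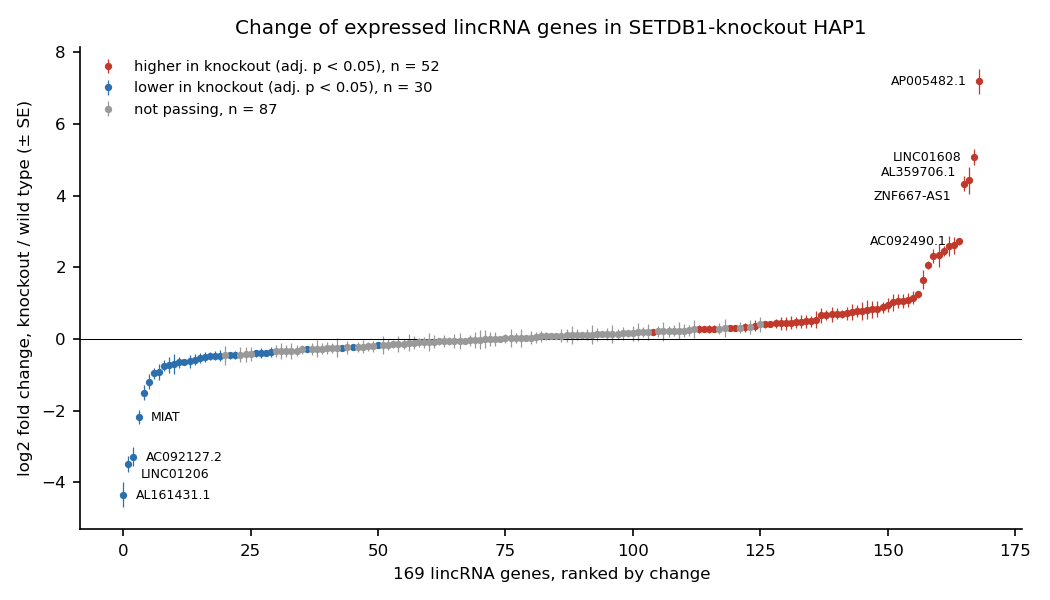
Log2 fold change of each of the 169 lincRNA genes, knockout over wild type, in rank order, with vertical bars for the standard error. Red points were higher (52) and blue points lower (30) at an adjusted p under 0.05, grey points did not pass (87), and most genes lie close to 0 with 4 genes above a log2 fold change of 4.

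AP005482.1 (ENSG00000260302, chromosome 18, 12739490 to 12776137, minus strand) rose most. It had wild-type counts of 0, 2 and 0 and knockout counts of 109, 119 and 135. The summed counts of 2 and 363 give a ratio of 174 with an exact 95% counting interval of 47.9 to 1443 (fitted log2 fold change 7.19, edgeR adjusted p = 5.9e-32). Both wild-type counts came from replicate 2, and without that library the fitted value, which then depends on the prior count, was 9.91. The gene was thus at or under the floor in each wild-type library and well above it in each knockout library, and its 4 exons overlap no other annotated gene. AC092490.1 (ENSG00000249790, chromosome 12, 8788257 to 8795789, plus strand) was already expressed in the wild type with 61, 53 and 49 counts, against knockout counts of 366, 397 and 370. Its level rose from 5.71 ± 0.43 CPM in wild type to 38.1 ± 2.1 CPM in knockout cells (SD, n = 3 each; change of 2.73 on the log2 scale, SE 0.10, adjusted p = 3.1e-39 by edgeR). LINC01511 (ENSG00000250584, chromosome 5, 1363582 to 1380067, minus strand) had wild-type counts of 27, 27 and 32 and knockout counts of 166, 171 and 163 (3.03 ± 0.38 to 16.8 ± 0.71 CPM, SD, n = 3 each; change of 2.47 on the log2 scale, SE 0.14, adjusted p = 7.6e-27 by edgeR). In all 3 genes the libraries of the 2 genotypes did not overlap.

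The first 400 bases of all annotated transcripts were searched with those of the 169 genes, keeping matches of at least 150 bases on the same strand, and the matches given here were chosen after the values were seen. Genes with like 5′ ends moved together in some sets and not in others. LINC02008 (ENSG00000239440, chromosome 3, 81986138 to 82463675, plus strand) had wild-type counts of 12, 4 and 3 and knockout counts of 38, 31 and 33 (log2 change 2.33 with SE 0.31, adjusted p = 8.9e-10 by edgeR), and without wild-type replicate 1 the change was 3.11. Its first bases were 78.8% identical to LINC01515 over 245 aligned positions and 79.3% identical to AC016205.1 over 251. Those 2 genes changed by 0.12 (SE 0.15, adjusted p = 0.55) and 0.14 (SE 0.16, adjusted p = 0.51) on the log2 scale by edgeR. AC074135.1, AC092279.1 and LINC01224 on chromosome 19 also share their first 184 to 188 aligned bases at 73.9% to 79.3% identity. They were higher by 0.67, 0.44 and 0.30 on the log2 scale, with edgeR adjusted p of 1.3e-05, 0.034 and 1.1e-06. AC074135.1 overlaps exons of ZNF730, and AC092279.1 those of ZNF254, on the same strand. ZNF730 and ZNF254 had log2 fold changes of 0.69 and 0.42. In AC092279.1 the libraries of the 2 genotypes overlapped. Of the tested genes matching AC074135.1, AC092279.1 and LINC01224, 5 of 6, 10 of 12 and 25 of 91 were higher, and 0, 0 and 20 were lower. NORAD and HCG11, 82.7% identical over 411 positions, were lower by log2 fold changes of -0.18 and -0.40 (edgeR adjusted p = 6.1e-06 and 0.00029), and because of that identity reads may have been shared between these 2 genes.

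The remaining large rises were of genes with few counts in the wild type. LINC01608 (ENSG00000253877, chromosome 8, 110937690 to 111027433, minus strand) had wild-type counts of 4, 5 and 3 and knockout counts of 141, 139 and 156. The level went from 0.424 ± 0.12 to 14.7 ± 0.62 CPM (SD, n = 3 each; change of 5.07 on the log2 scale, SE 0.23, adjusted p = 1.4e-33 by edgeR). Despite this large change, LINC01608 was not among the genes whose promoters were looked up for printing. AL359706.1 (chromosome 13, 44982077 to 45083125, minus strand) had 4, 2 and 0 counts against 49, 46 and 48, a ratio of 22.9 with a counting interval of 10.3 to 63.3. Without wild-type replicate 1 its fitted log2 fold change of 4.43 became 5.29. It overlaps exons of NUFIP1 on the same strand, so the reads of the pair cannot be told apart by position or strand where exons are shared, and NUFIP1 itself had a log2 fold change of 0.61 (SE 0.062). By distance between starts, the nearest protein-coding genes to AP005482.1 (CEP76, at 73360 bases) and AL359706.1 (GTF2F2, at 37390 bases) had log2 fold changes of 0.23 and -0.01.

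AC008050.1 on chromosome 14 had wild-type counts of 18, 5 and 8 and knockout counts of 71, 67 and 63 (log2 fold change 2.62, SE 0.24), and without wild-type replicate 1 the change was 3.22. AL138881.1 on chromosome 6 had 7, 7 and 6 against 45, 33 and 51 (6.16-fold, with SE 0.29 on the log2 scale), and AC068707.1 on chromosome 10 had 11, 19 and 21 against 93, 93 and 81 (2.31, SE 0.20). Adjusted p by edgeR was at most 9.1e-13 in these 3, and in each the knockout libraries lay above those of the wild type. None of the 3 overlaps an exon of another gene.

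**Figure D2:**
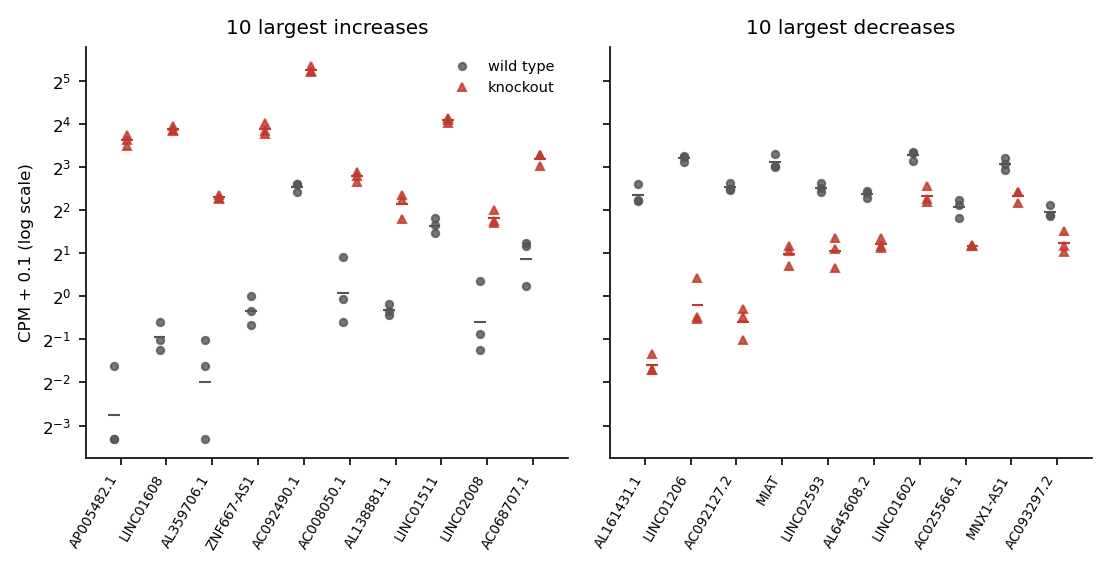
CPM plus 0.1 on a log scale in each library for the 10 lincRNA genes with the largest increases (left) and the 10 with the largest decreases (right). Grey circles are the 3 wild-type and red triangles the 3 knockout libraries, short lines are means of the log values, and in each of the 20 genes no library of one genotype falls among those of the other.

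Among genes that fell, AL161431.1 (ENSG00000275216, chromosome 13, 109269634 to 109278512, plus strand) changed most, with wild-type counts of 46, 41 and 56 and knockout counts of 2, 2 and 3. The level went from 5.02 ± 0.81 to 0.235 ± 0.053 CPM (SD, n = 3 each; change of -4.35 on the log2 scale, SE 0.35, adjusted p = 4.9e-19 by edgeR), which is at or under the floor in each knockout library. LINC01206 (ENSG00000242512, chromosome 3, 181952343 to 182010678, plus strand), whose CpG-poor promoter is printed above, had 95, 76 and 89 counts and then 12, 6 and 6 (9.10 ± 0.51 to 0.810 ± 0.36 CPM, SD, n = 3 each; change of -3.48 on the log2 scale, SE 0.23, adjusted p = 9.7e-24 by edgeR). SOX2, the nearest protein-coding gene by its start at 240419 bases and a transcription factor of stem and neural cells, had a log2 fold change of -0.13. AC092127.2 (chromosome 16, 85580009 to 85583571, minus strand) had 56, 54 and 51 counts against 6, 7 and 4 (log2 change -3.28 with SE 0.28, adjusted p = 5.5e-18 by edgeR). In these 3 genes the lowest wild-type count was more than 5 times the highest knockout count.

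MIAT (ENSG00000225783, chromosome 22, 26646428 to 26676475, plus strand), a nuclear lincRNA known from studies of heart and neural tissue, fell from 82, 70 and 92 counts to 21, 15 and 20 (log2 change -2.18 with SE 0.19, adjusted p = 3.2e-17 by edgeR). It overlaps exons of MIATNB and Z99774.1, so its counts are uncertain, and it stayed under a mean of 20 in the knockout. LINC02593 and AL645608.2 lie 1917 bases apart on chromosome 1 and fell together. LINC02593 (916865 to 921016, minus strand) had 57, 54 and 49 counts against 24, 20 and 15, and AL645608.2 (911435 to 914948, plus strand) had 48, 46 and 50 against 24, 21 and 21. LINC02593 stayed under a mean of 20 in the knockout. The log2 fold changes of LINC02593 and AL645608.2 were -1.50 (SE 0.21) and -1.19 (SE 0.21), with edgeR adjusted p of 2.3e-09 and 7.2e-07. The nearest protein-coding gene of both, SAMD11, had a log2 fold change of -2.03. The other 4 of the 10 largest decreases were smaller, with log2 fold changes of -0.96 in LINC01602, -0.92 in AC025566.1, -0.75 in MNX1-AS1 and -0.73 in AC093297.2, and a largest edgeR adjusted p of 0.0037.

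Per exon kilobase the most abundant lincRNA gene over the 6 libraries was SNHG19, at 93.5 CPM per kilobase of merged exons, followed by SNHG8 (81.0), ERVK-28 (63.0), NORAD (38.9) and MALAT1 (31.0). The median over the 169 genes was 2.25. The first 2 in this order did not pass the threshold: SNHG19 was at 89.4 and 97.7 CPM per kilobase in wild type and knockout (log2 change 0.12 with SE 0.072, adjusted p = 0.16 by edgeR), and SNHG8 was at 82.2 and 79.9. ERVK-28 was higher, at 56.7 and 69.3 CPM per kilobase (log2 change 0.28 with SE 0.065, adjusted p = 1.7e-04 by edgeR). The abundances are those by which the genes were chosen and are given as a description.

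NORAD, which sequesters PUMILIO proteins, and MALAT1, a component of nuclear speckles, were both slightly lower in the knockout. MALAT1 had wild-type counts of 3112, 2460 and 2836 and knockout counts of 2449, 2438 and 2618 (294 ± 16 to 252 ± 4.7 CPM, SD, n = 3 each; change of -0.23 on the log2 scale, SE 0.032, adjusted p = 3.5e-09 by edgeR), and the raw counts overlap while the CPM values do not. NORAD had 2315, 1910 and 2061 against 1830, 1994 and 1985 counts, or 220 ± 6.5 and 195 ± 8.1 CPM (SD, n = 3 each). These 2 genes made up 24.3% to 26.3% of the counts of the 169 genes in wild-type and 20.7% to 21.6% in knockout libraries. All 169 genes together took 2014 to 2046 CPM in the wild type and 2097 to 2115 CPM in the knockout, and without MALAT1 and NORAD 1493 to 1525 and 1644 to 1673 CPM.

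A list of 25 well-studied lincRNAs held 7 of the 169 genes. Of these 0 were higher, 6 were lower and 1 did not pass, against 25.5% higher and 25.9% lower of all genes tested. MIAT, among the 6, reached the mean count in the wild type only. CASC15, also listed, fell just short of the mean count and was higher in the knockout. Its wild-type counts were 8, 12 and 14 and its knockout counts 30, 19 and 36 (log2 fold change 1.245, adjusted p = 1.5e-04 by edgeR). NEAT1, the scaffold of paraspeckles, had wild-type counts of 436, 398 and 408 and knockout counts of 285, 258 and 290 (43.6 ± 0.94 to 28.0 ± 1.5 CPM, SD, n = 3 each; change of -0.64 on the log2 scale, SE 0.068, adjusted p = 1.2e-13 by edgeR). CRNDE, first described in colorectal tumours, had 130, 119 and 115 counts against 91, 88 and 101 (log2 fold change -0.45, SE 0.12). LINC00461, which hosts the microRNA gene MIR9-2, had 92, 78 and 82 against 77, 47 and 53 (-0.58, SE 0.15), with knockout replicate 1 just under the lowest wild-type count. The edgeR adjusted p was 7.1e-04 for CRNDE and 6.2e-04 for LINC00461, and MIAT, NORAD and MALAT1 are given above. PVT1, beside MYC on chromosome 8, had 57, 41 and 49 against 40, 39 and 48 counts, and its change of -0.28 on the log2 scale (SE 0.17) did not pass, with an adjusted p = 0.18 by edgeR. The median log2 fold change over the 7 was -0.45, against 0.00 over all genes tested.

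A list of small RNA hosts, drawn up from SNHG and MIR...HG symbols with EPB41L4A-AS1 added, held 11 of the genes. It does not hold every host, since LINC00461 and LINC02001, which overlaps SNORD7, are not in it. Of the 11, 2 were higher, 1 was lower and 8 did not pass, against 25.5% higher and 25.9% lower of all genes tested, and the median log2 fold change was 0.07. MIR9-3HG, host of MIR9-3, had 79, 87 and 95 counts in the wild type, all under its lowest knockout library (9.20 ± 1.3 against 12.5 ± 0.87 CPM, SD, n = 3 each; log2 change 0.44 with SE 0.12, adjusted p = 0.0013 by edgeR). EPB41L4A-AS1 had 145, 136 and 140 against 188, 170 and 181 (0.29, SE 0.096, edgeR adjusted p = 0.0086), and it overlaps EPB41L4A. That call was lost under DESeq2 (adjusted p = 0.070) and without knockout replicate 1 (adjusted p = 0.059 by edgeR). MIR99AHG, host of the miR-99a cluster, had 54, 55 and 62 against 38, 36 and 42 (log2 change -0.63 with SE 0.17, adjusted p = 0.0015 by edgeR). Of the 8 that did not pass, SNHG4, SNHG8, SNHG9, SNHG15, SNHG19 and SNHG25 host snoRNAs and had log2 fold changes between -0.21 and 0.12, while MIR22HG and MIR4432HG had 0.19 and 0.05.

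Of 6 lincRNAs listed as responsive to p53, 2 were among the 169 genes and moved in opposite directions. PURPL, which is known to restrain p53, had wild-type counts of 41, 33 and 51 and knockout counts of 72, 74 and 79 (4.38 ± 0.92 to 7.56 ± 0.20 CPM, SD, n = 3 each; change of 0.78 on the log2 scale, SE 0.16, adjusted p = 2.5e-05 by edgeR), and NEAT1 was the one that fell. With 2 genes the median of 0.07 describes neither.

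Chromosome 19, which carries large clusters of zinc finger genes, held more of the 169 genes than any other chromosome. Of its 19 lincRNA genes 13 were higher, 1 was lower and 5 did not pass, with a median log2 fold change of 0.42. On the other autosomes 39 of 150 were higher and 29 lower, with a median of 0.03. Protein-coding genes of chromosome 19 leaned the same way, with 39.8% higher and 13.8% lower of 925 tested. The nearest protein-coding gene by start was a gene with a ZNF symbol for 12 of the 19, and 8 of those 12 were higher and 1 lower. Of the other 7, 5 were higher and 0 lower (2 did not pass the edgeR threshold). These 7 include LINC00665, whose nearest gene is ZFP14, so the symbol does not pick out every zinc finger gene.

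**Figure D3:**
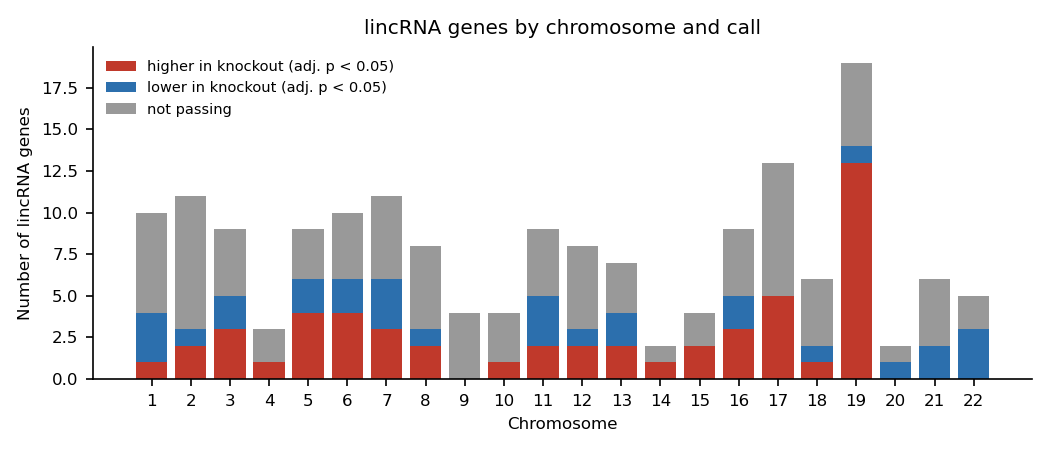
Number of the 169 lincRNA genes on each autosome, stacked by call in the knockout (red higher, blue lower, grey not passing). Chromosome 19 has 19 genes, of which 13 were higher. Chromosomes 20, 21 and 22, grouped after the calls were seen, have 13 genes with 0 higher and 6 lower. Across all genes tested 25.5% were higher and 25.9% were lower.

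ZNF667-AS1 (ENSG00000166770, chromosome 19, 56477250 to 56500666, plus strand) starts 815 bases from ZNF667, which is read in the opposite direction. It had wild-type counts of 7, 8 and 5 and knockout counts of 132, 157 and 143, or 0.705 ± 0.18 and 14.5 ± 1.3 CPM (SD, n = 3 each; change of 4.34 on the log2 scale, SE 0.21, adjusted p = 8e-32 by edgeR). ZNF667 itself had a log2 fold change of 5.37, and since exons of the pair overlap, their reads cannot be told apart without strand. LINC00665 (ENSG00000232677, chromosome 19, 36313067 to 36331718, minus strand), chosen after its values were seen, had 53, 69 and 62 against 269, 283 and 259 counts (log2 change 2.07 with SE 0.11, adjusted p = 3.4e-29 by edgeR). Its 5′ end was 86.7% identical to that of HKR1 and 83.9% to that of ZNF790-AS1 over 286 positions each, and these genes had log2 fold changes of 0.54 and 6.12.

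AC008555.1 and LINC01801, which overlap in span on chromosome 19, were also named after their values were seen. They had 33, 26 and 26 against 66, 77 and 55 counts and 26, 21 and 30 against 48, 55 and 67 counts, with log2 fold changes of 1.15 (SE 0.18) and 1.07 (SE 0.19), and ZNF599, nearest to both, had 0.73. AC008736.1 moved against its neighbour: it had wild-type counts of 82, 72 and 99 and knockout counts of 202, 225 and 201 (log2 change 1.24 with SE 0.11, adjusted p = 2.6e-17 by edgeR), while NUDT19, which starts 211 bases away on the other strand, had -1.04. The gene on chromosome 19 that fell was AC005261.1, with 84, 80 and 69 counts against 59, 53 and 57 (log2 change -0.53 with SE 0.15, adjusted p = 0.0014 by edgeR).

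The nearest protein-coding gene was itself tested for 148 of the 169 lincRNA genes. Of the 45 of these lincRNA genes that were higher, 16 had a neighbour that was higher, and of the 28 that were lower, 9 had a neighbour that was lower. Across all protein-coding genes tested 26.3% were higher and 27.6% were lower. When both passed, which happened in 38 pairs, 25 went the same way and 13 went opposite ways. Across the 148 pairs, which share libraries and are not independent replicates, Spearman's rho of the log2 fold changes was 0.36 and Pearson's r 0.36. In the 102 pairs whose lincRNA overlaps no exon rho was 0.26 and Pearson's r was 0.16. Both passed in 26 of these, and 15 went the same way and 11 opposite ways. For the 46 pairs that start within 2 kb of each other on opposite strands, rho was 0.60, and Pearson's r was 0.82 with ZNF667-AS1 and 0.17 without it. Among the 28 of those pairs in which the lincRNA overlaps no exon, rho was 0.44 but Pearson's r was -0.11. In these, 2 of 3 pairs in which both passed went the same way. For the 45 neighbours beyond 50 kb rho was 0.23 and Pearson's r was 0.10.

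**Figure D4:**
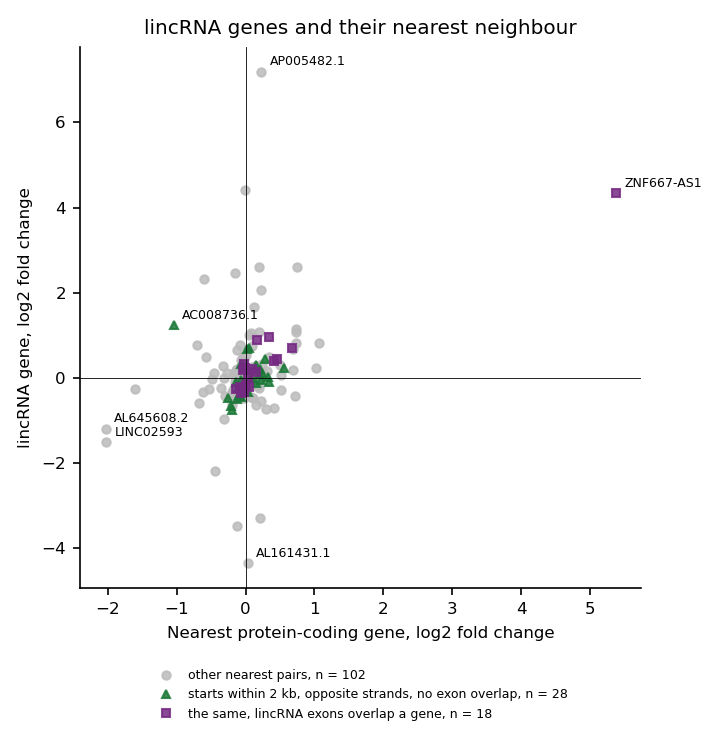
Log2 fold change of each lincRNA gene (vertical axis) against that of its nearest protein-coding gene (horizontal axis) for 148 pairs. Purple squares and green triangles are pairs that start within 2 kb on opposite strands, with (18) and without (28) exon overlap, grey circles are the other 102 pairs, and ZNF667-AS1 lies alone at the upper right while AP005482.1 and AL161431.1 changed far more than their neighbours.

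L1 elements give another readout at the same loci. Of 6437 long L1 copies in the deposited tables, 16 lay at least partly in the span of 14 of the lincRNA genes, and 9 of these had reads enough to be tested. On the deposited values 2 were higher in the knockout and 0 were lower by limma, against a background of 19.1% and 9.31% of the 816 L1 loci tested. An L1PA4 copy in OLMALINC (chromosome 10, 100406331 to 100412500) had 124, 76 and 86 recovered reads in wild-type and 182, 187 and 198 in knockout libraries. Its deposited value went from 106 ± 20 to 159 ± 6.5 (SD, n = 3 each), a change of 0.60 on the log2(value + 1) scale (SE 0.14, limma adjusted p = 0.0038). OLMALINC itself (chromosome 10, 100373513 to 100454043, plus strand) had 334, 282 and 287 counts against 345, 342 and 351, and its log2 fold change of 0.13 (SE 0.069) did not pass, at an adjusted p of 0.097 by edgeR. Of this copy 2957 bases lie in annotated exons of OLMALINC.

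The other L1 copy that passed, an L1PA4 in LINC00662 (chromosome 19, 27695439 to 27701587), had 26, 22 and 22 reads against 51, 56 and 60 (log2 fold change 0.81 on the same scale, SE 0.21, limma adjusted p = 0.0067). LINC00662 was higher as a gene, with 150, 130 and 141 counts against 199, 190 and 202 (log2 change 0.42 with SE 0.093, adjusted p = 7.9e-05 by edgeR), and 97 bases of the copy are exonic. Reads of an L1 copy and of the transcript around it cannot be told apart in these tables. The deposited scale differs from that of the gene counts, since 1 read was worth 1.04 to 1.22 in wild-type and 0.835 to 0.856 in knockout libraries. With whole reads recovered and tested by edgeR on gene-table scaling, 3 loci were higher, against a background of 30% of loci. The third was an L1PA5 copy that lies only partly in the span of CASC9 (edgeR adjusted p = 0.015). On that scaling the copies in OLMALINC and LINC00662 had log2 fold changes of 0.92 and 1.18. Young L1 copies resemble one another, and how the authors assigned reads among copies is not given in the sources used here.

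The directional libraries said little about these genes. They held 532021 to 676691 gene counts, with 94.6% of reads in no gene, and 131 of the 169 genes had at most 10 reads over all 6 of them. SETDB1 had 12, 17 and 7 counts there in wild type (19.6, 25.1 and 13.2 CPM) and 6, 4 and 11 in the libraries labelled knockout (9.58, 6.998 and 20.1 CPM), so that directional knockout replicate 3 lies within the wild type. Only 15 of the 169 genes could be tested there, 9 of which overlap an exon on the opposite strand. By edgeR 0 were higher and 3 were lower (4 at an unadjusted p under 0.05), against a background of 7.67% and 8.54% of 4745 genes tested, and by DESeq2 no gene passed in either direction. The 3 were LINC01291, LINC00337 and AC092171.2, with directional log2 fold changes of -0.43, -0.32 and -0.31, next to -0.29, -0.35 and -0.45 in the non-directional libraries, where the change of LINC01291 did not pass (adjusted p = 0.055 by edgeR) and the other two were called lower. LINC01291 had 103, 108 and 92 directional counts in wild-type and 68, 65 and 83 in knockout libraries. Which strand was counted is not given in the sources used here, so a directional count may belong to the opposite strand.

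Whether the change of a lincRNA gene differed between the kits was tested in one edgeR fit over the 12 libraries. This term was under the threshold in 0 of the 169 genes, against a background of 1.82% of genes tested. At an unadjusted p under 0.05 there were 8, and the DESeq2 Wald test also called 0. With so few directional reads counted to genes, a difference was not detectable in most of the 169. The strand counted there is not given.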

How the data were processed

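Gene expression was measured in 12 libraries, with groups and replicate numbers read from the sample titles. The authors deposited raw counts per gene in the layout of HTSeq (Trim Galore 0.4.4, STAR 2.6.0a and HTSeq 0.11.1 stand in the submitters' processing notes, with build hg38) and, for the non-directional libraries, a deposited L1 signal that was whole reads divided by 1 factor per library, from which reads were recovered (100% of nonzero values whole within 0.01). The paper supplied for style does not describe these libraries. Gene positions and types came from GENCODE 29.

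Each kit was fitted alone over all genes with edgeR 4.0.16 in R 4.3.3 (filterByExpr with minimum count 10 and minimum total 15, TMM, quasi-likelihood F-test, Benjamini-Hochberg adjustment over all genes tested). Standard errors were derived from each log2 fold change and its F statistic and are approximate. L1 values were tested as log2(value + 1) with limma 3.58.1. DESeq2 1.42.0 served as an alternative. CPM are counts per 1000000 gene counts of the library. 5′ ends were compared with BLAST+ 2.17.0 (e-value limit 1e-15), and one such comparison is not reported here. The scripts were tested on simulated data.

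The non-directional kit does not keep strand, so reads in overlapping exons (54 of the 169 genes) are uncertain, and reads ambiguous between genes (8.37% to 8.41%) were not counted to any gene. Intervals and floors cover counting error only. Named were the 10 largest and 10 smallest changes among genes past the threshold whose groups do not overlap, the 5 highest levels per exon kilobase, 3 gene lists (well-studied, small RNA hosts, p53-responsive) and genes holding a called L1 locus. Members, lists and markers (haematopoietic, epithelial, fibroblast) were chosen with earlier results of these data known.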

Additional observations from a re-analysis of the deposited data

How the results depend on the processing

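In the non-directional libraries the calls kept their direction in every alternative run: of the 82 lincRNA genes called, 61 passed under the DESeq2 Wald test and 70 to 82 under the other edgeR fits, and 0 changed sign. Leaving out 1 library gave 43 to 47 genes higher and 29 to 33 lower. Requiring a 2-fold change gave 18 higher and 6 lower. A mean count of at least 50 gave 27 higher and 21 lower among 90 genes, against 25.5% and 25.9% of all genes tested. With the replicate number as a block 51 were higher and 31 lower, and the 3 knockout libraries summed as 1 gave 47 and 30. Libraries with the same number did not deviate together (correlations of -0.026 to 0.014), so they share a number only. Of the named genes, EPB41L4A-AS1 no longer passed under DESeq2 (0.29, adjusted p = 0.070) or without knockout replicate 1 (0.25, edgeR adjusted p = 0.059), and SNHG9 passed without knockout replicate 2 (-0.33, edgeR adjusted p = 0.028). In the directional libraries the 3 genes called lower became 0 under DESeq2, 2 with the replicate block and 0 to 3 with 1 library left out (0 without knockout replicate 2 and 1 without wild-type replicate 3). Without a filter 1 was higher and 2 were lower among 134 genes. The L1 calls stayed at 2 higher and 0 lower with 1 library left out. The genotype by kit term called 0 lincRNA genes in each alternative. The few reads counted to genes and the strand setting both limit the directional values. That setting is not given in the sources used here.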
